A study of Mus musculus with 65 samples.

Results

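Cxcr4 encodes the receptor for the chemokine Cxcl12, and it is 1 gene of the 18036 in the table of counts. Its row was found by its symbol in RefSeq, NCBI gene 12767. In bone marrow, stromal cells near the sinusoids release Cxcl12, and stem cells that carry the receptor are held there by it. The receptor couples to inhibitory G proteins, is switched off by G protein-coupled receptor kinases and arrestins, and is then taken into the cell and degraded. Its transcription is known to respond to low oxygen.

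The cells were single long-term hematopoietic stem cells of mice older than 20 months, sorted as lineage-depleted Sca-1+ Kit+ cells that were CD34-/low, Flk2-, CD48- and CD150+. All mice were double heterozygous for an SCL-driven tetracycline transactivator and an H2B-GFP reporter (strain label SCL-tTAxH2B-GFP), in which GFP bound to chromatin is diluted by cell division. The 37 GFP-positive cells are the label-retaining stem cells, LR-HSCs, and the 28 GFP-negative cells the non-label-retaining ones, NLR-HSCs. They came from 4 biological repeats, with 9, 9, 10 and 9 LR-HSCs and 8, 4, 6 and 10 NLR-HSCs in repeats 1 to 4. All cells spent a night in culture at 3% oxygen without growth factors before lysis, so every level of Cxcr4 is a level after that culture. Whether a repeat was 1 animal or a pool is not given in the sources used here.

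Cxcr4 lies on the minus strand of chromosome 1, from 128588199 to 128592299 in RefSeq for GRCm38.p6, the build also called mm10. GENCODE M21 gives its main transcript, of 1805 bases, as a first exon of 102 bases (128592189 to 128592290) and a second of 1703 bases (128588199 to 128589901), with 21 and 1056 coding bases in them and untranslated sequence at both ends. No other gene of that annotation overlaps it on either strand. The table gives 1 count per gene, so exons and untranslated parts cannot be viewed apart.

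The stretch just before the start of transcription is shown because it holds letters of factors named in the lists used here, hypoxia-inducible factor and nuclear respiratory factor 1. It covers 250 bases, chr1:128592300-128592549, minus strand, written 5′ to 3′ from RefSeq for GRCm38.p6. Capitals mark the matches on either strand.

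Cxcr4 promoter: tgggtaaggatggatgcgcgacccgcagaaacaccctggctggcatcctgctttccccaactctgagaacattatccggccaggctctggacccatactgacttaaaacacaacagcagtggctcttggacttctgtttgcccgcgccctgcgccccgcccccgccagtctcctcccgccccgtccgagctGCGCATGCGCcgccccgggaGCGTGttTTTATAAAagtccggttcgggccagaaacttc

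The core bound by nuclear respiratory factor 1, searched as GCGC, an A, any base and GCGC, began at position -59 from the start of transcription on both strands. The bases there read the same on each strand. Of 32851 promoter stretches of this length 3.74% held a match on either strand. The hypoxia core GCGTG began at -39, a match that 28.2% of the stretches held, and the other hypoxia core, ACGTG, which 16.6% held, was not among these letters. The TATA core TATAAA began at -30 on the gene's strand and overlapped a match on the other strand at -32, and 12.4% of the stretches held it. These are matches of letters only, and nothing about binding was measured.

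Total counts over the genes in the table ran from 27954 to 20516069 per LR-HSC (median 264894) and from 86.1 to 661078 per NLR-HSC (median 118056). Of the 21900 protein-coding genes in RefSeq 46.7% had a row, so a share of counts is a share of this part of the genome. LR-HSCs had 536 to 3640 genes with a count (median 1948), and NLR-HSCs 61 to 2486 (median 961.5). Of the sort genes in the table, Slamf1, the gene of CD150, Flt3, the gene of Flk2, and Cd48 had counts in no cell of either group. Of these, CD150 was required on the sorted cells. The stem cell transcription factor gene Hlf was found in 31 LR-HSCs and 12 NLR-HSCs.

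Cxcr4 was among the transcripts found most often. It had a count in 34 of 37 LR-HSCs (91.9%, exact 95% interval 78.1 to 98.3%) and in 19 of 28 NLR-HSCs (67.9%, 47.7 to 84.1%). Of the 6498 genes with any count in LR-HSCs 92 were found in more cells than Cxcr4, and of the 5181 in NLR-HSCs 185 were. Genes in general were found in more LR-HSCs, with a median of 8 LR-HSCs and 4 NLR-HSCs per such gene. Of 2786 genes later tested between the groups, 859 (30.8%) were found in a larger share of LR-HSCs in all 4 repeats. The cell counts of other genes below stand against this background. The intervals cover counting error only, and cells of a repeat are not independent.

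By repeat, Cxcr4 was found in 9 of 9, 9 of 9, 9 of 10 and 7 of 9 LR-HSCs and in 8 of 8, 4 of 4, 2 of 6 and 5 of 10 NLR-HSCs. The groups were alike in repeats 1 and 2, where every cell had a count, and apart in repeats 3 and 4. The mean over repeats was 91.9% ± 10.6 in LR-HSCs and 70.8% ± 34.4 in NLR-HSCs (SD, n = 4 each). The difference of 21.1 points was within the spread between repeats (exact two-sided permutation p = 0.429; with 4 against 4 the smallest possible p is 0.0286).

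Detection alone hid a wide range of level. In CPM, counts per 1000000 counts of the cell, Cxcr4 in LR-HSCs ran from 328.4 to 6119 (median 2836) in repeat 1, from 77.4 to 7052 (median 769.9) in repeat 2, from 0 to 4401 (median 809.1) in repeat 3 and from 0 to 2913 (median 15.2) in repeat 4. In NLR-HSCs it ran from 32.4 to 4051 (median 2142) in repeat 1, stood at 4197, 91.4, 53.2 and 623.1 in the 4 cells of repeat 2, and ran from 0 to 2.10 (median 0) in repeat 3 and from 0 to 72.0 (median 3.19) in repeat 4. LR-HSCs thus included cells with over 1000 CPM in every repeat, and the ranges of the groups overlapped in each repeat.

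**Figure D1:**
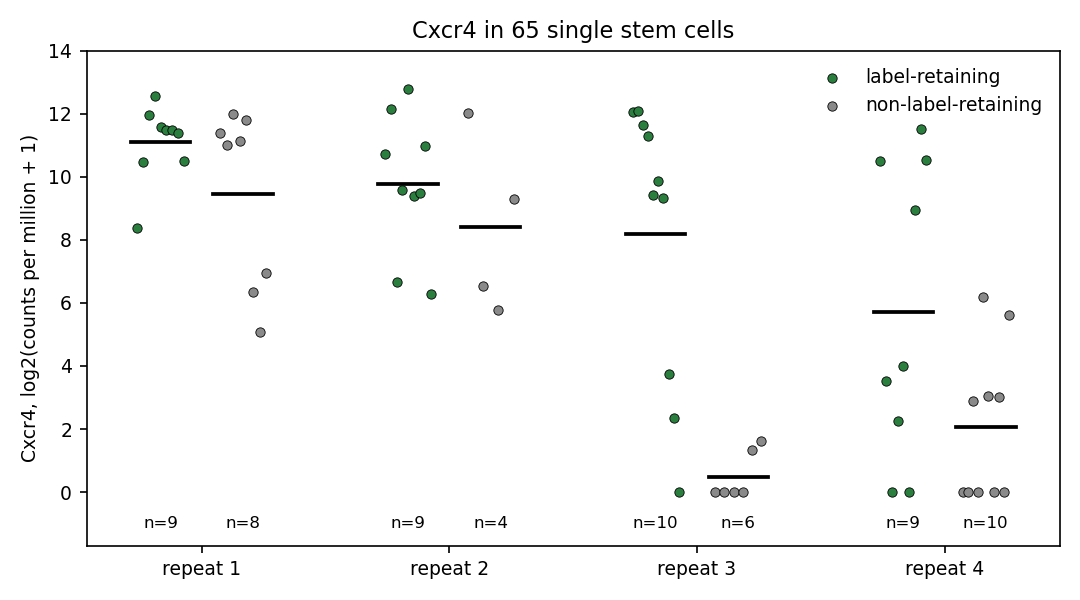
Cxcr4 in each of the 65 cells, as log2(CPM + 1), by repeat, with label-retaining cells in green and non-label-retaining cells in grey; bars are means over cells. In repeat 3 the label-retaining mean was 8.19 and the non-label-retaining mean 0.49, while in repeat 1 they were 11.09 and 9.46.

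Many of the low values rested on single reads. A count of 1 or 2 was the whole signal in 5 LR-HSCs and 7 NLR-HSCs, while 28 LR-HSCs and 6 NLR-HSCs had 10 or more counts. In raw counts, LR-HSCs reached 82696 in repeat 1 and 1499 in repeat 4. NLR-HSCs reached 1378 in repeat 1, 17 in repeat 2, 1 in repeat 3 and 8 in repeat 4. At the median total of NLR-HSC repeat 3 (271753 counts), 3 counts would be 11.0 CPM, so levels under about this value were not measurable there. With 10 counts as the limit for detection, the mean shares over repeats were 75.8% in LR-HSCs and 21.9% in NLR-HSCs (exact permutation p = 0.0571). With 100 CPM, a limit chosen after the values were seen, they were 75.8% in LR-HSCs and 31.2% in NLR-HSCs (exact permutation p = 0.143); by repeat this gave 9 of 9, 8 of 9, 7 of 10 and 4 of 9 LR-HSCs and 6 of 8, 2 of 4, 0 of 6 and 0 of 10 NLR-HSCs.

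Thinning gave each cell the same total of 10000 read counts and left out 4 NLR-HSCs with fewer. It did not match the number of genes or molecules per cell. The expected share of cells with Cxcr4 was then 99.7, 91.1, 71.6 and 47.6% in LR-HSC repeats 1 to 4 and 80.0, 68.7, 0.602 and 15.1% in NLR-HSC repeats 1 to 4. The LR-HSC value was higher in 4 of 4 repeats. The means were 77.5% ± 23.1 in LR-HSCs and 41.1% ± 39.1 in NLR-HSCs (SD, n = 4 each), a difference of 36.4 points that did not pass the unpaired test (exact permutation p = 0.200). With same-numbered repeats paired, the SD of the differences was 23.7 points (n = 4 pairs; exact sign-flip p = 0.125, the smallest that 4 pairs allow). In 1 seeded draw Cxcr4 remained in 27 of 37 LR-HSCs and 9 of 24 NLR-HSCs. Thinned to 5000, 20000 and 50000 counts, the means were 74.6, 80.2 and 87.9% in LR-HSCs and 33.1, 49.5 and 56.6% in NLR-HSCs.

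The share of a cell's counts taken by Cxcr4 went the same way in each repeat. Its mean over cells was 2761, 1968, 1671 and 707.1 CPM in LR-HSC repeats 1 to 4, and 1856, 1241, 0.602 and 14.1 in NLR-HSC repeats 1 to 4. In order of level, LR-HSC repeats 1 and 2 came first, then NLR-HSC repeat 1, LR-HSC repeat 3, NLR-HSC repeat 2 and LR-HSC repeat 4, and NLR-HSC repeats 4 and 3 came last. Cells of neighbouring repeats in this order overlapped in level throughout. The means over repeats were 1777 ± 848.6 in LR-HSCs and 778.0 ± 924.7 in NLR-HSCs (SD, n = 4 each), a ratio of 2.28. The difference of 998.8 CPM held in 4 of 4 repeats and did not pass the unpaired test (exact permutation p = 0.171). Within repeats 1 to 4 the differences were 904.6, 727.0, 1670 and 693.0 CPM, with an SD of 457.2 (n = 4 pairs; exact sign-flip p = 0.125), so no paired exact test of this design can pass the threshold. The value of NLR-HSC repeat 2 rested on 1 cell, in which 1 count of 238.3 made 4197 CPM. Without the cells under 10000 counts the means were 1777 CPM in LR-HSCs and 525.9 in NLR-HSCs (difference 1251, exact permutation p = 0.0857). On the log2(CPM + 1) scale the means per cell were 8.69 ± 2.32 in LR-HSCs and 5.11 ± 4.48 in NLR-HSCs (SD, n = 4 each), a difference of 3.58 (exact permutation p = 0.229).

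**Figure D2:**
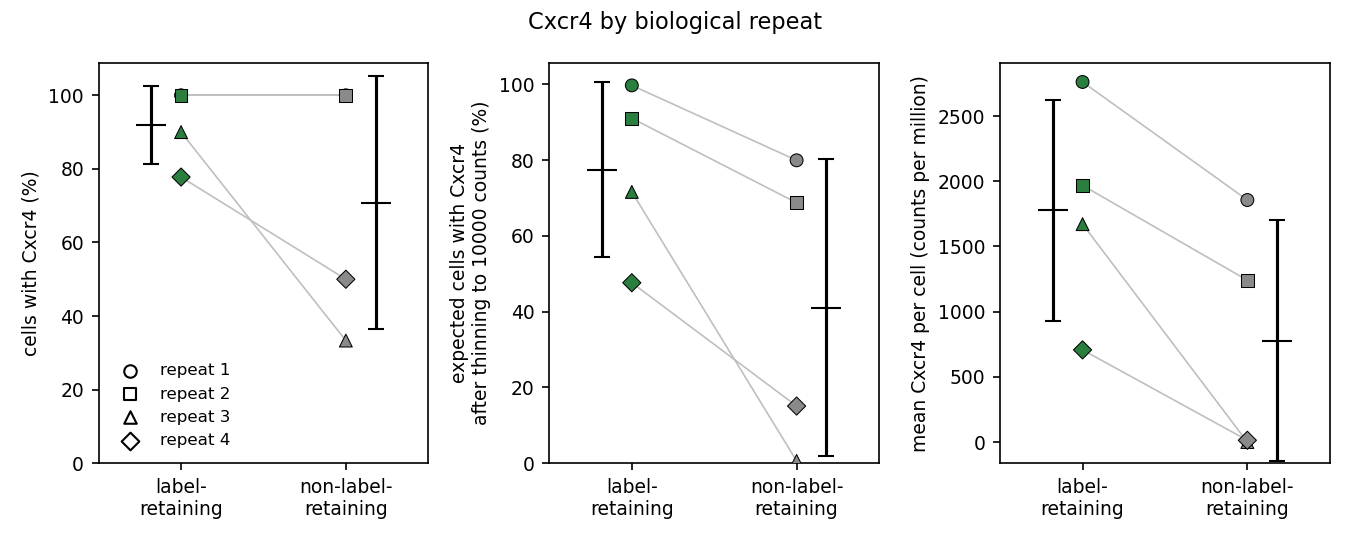
Share of cells with Cxcr4, the expected share after thinning to 10000 counts, and mean CPM, for each repeat (1 symbol per repeat, grey lines join the groups of a repeat); bars are the mean and SD over 4 repeats. The thinned share and the mean level lay higher for label-retaining than non-label-retaining cells in 4 of 4 repeats, and the spread between repeats was wide.

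Among cells with a count, the median level by repeat was 1256 ± 1069 CPM in LR-HSCs and 627.2 ± 1024 in NLR-HSCs (SD, n = 4 each; exact permutation p = 0.429). Per kilobase of transcript, Cxcr4 ranked at a median of 65 among a median of 1940 detected genes in LR-HSCs that had it, and at 157 among 975 in NLR-HSCs. It was in the top 100 genes of 21 of 34 such LR-HSCs and 6 of 19 such NLR-HSCs. In LR-HSC repeat 1 its rank was 20 to 80 in all 9 cells, and in NLR-HSC repeat 3 it was 519 and 607 in the 2 cells with a count.

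For a test across all genes, counts were added up per repeat and group. In these sums Cxcr4 stood at 1999, 1587, 1958 and 844.9 TMM-scaled CPM in LR-HSC repeats 1 to 4, and at 1226, 114.1, 3.83 and 42.2 in NLR-HSC repeats 1 to 4. The groups overlapped through NLR-HSC repeat 1. The log2 fold change was 2.20 ± 2.34 (SE) and did not pass the threshold (edgeR quasi-likelihood test, adjusted p = 0.65). The median log2 fold change of all 2786 genes tested was 1.15, and 1825 of them (65.5%) lay above 0. The test called 0 genes (0%), while 180 were higher and 122 lower by an unadjusted p under 0.05. That balance moved with the settings, to 230 higher and 43 lower without TMM, to 212 and 9 with the repeat as a block and to 285 and 0 with limma on repeat means. DESeq2 called 11 (0.395%), not Cxcr4 (log2 fold change 1.61 ± 1.63, adjusted p = 0.666). limma on repeat means of log2 values called 0 genes (Cxcr4 adjusted p = 0.471), and with the repeat as a block it called 26 (0.933%) and placed Cxcr4 just outside them (3.58 ± 1.08, adjusted p = 0.0599). In counts simulated with the dispersion of these sums, 3.42, the edgeR test called 0% of log2 changes of 2, 4 and 6, so a count of 0 is no sign of like groups.

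Within repeats the place of Cxcr4 among the tested genes differed. Its difference in mean log2 level was 1.64 in repeat 1 and 1.39 in repeat 2, and 47.7% and 29.5% of the tested genes had larger ones. In repeat 3 the difference was 7.69 and 1 of 2786 genes had a larger one, and in repeat 4 it was 3.62 with 11.1% of genes larger. The medians of all genes were 1.55, 0.13, 1.05 and 1.52 in repeats 1 to 4. In repeat 1, then, Cxcr4 moved about as genes in general did. These are descriptions of single pairs of repeats, with no replicate behind each.

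The number of genes found in a cell moved with Cxcr4. Over the 61 cells with at least 10000 counts the Spearman correlation of its CPM with genes per cell was 0.71, and 0.62 after the mean of each repeat and group was taken from each cell; both measures come from the same library. With total counts the correlation was 0.61 in LR-HSCs and -0.47 in NLR-HSCs, with the cells of all repeats pooled. After the mean of each repeat and group was taken out it was 0.19 over the 61 cells. Median totals were 201268 and 164961 counts in LR-HSC repeats 3 and 4 and 271753 and 201757 in NLR-HSC repeats 3 and 4. Median genes per cell were 1620 and 1258 in LR-HSC repeats 3 and 4 and 1137 and 764 in NLR-HSC repeats 3 and 4. Among cells with at least 1000 genes, a limit chosen after the data were seen, Cxcr4 had a median of 1700 CPM in 29 LR-HSCs and 53.2 in 13 NLR-HSCs. In repeat 3 the 6 such LR-HSCs ran from 692.7 to 4401 and the 4 NLR-HSCs from 0 to 1.51. The means over repeats in these cells were 2174 CPM in LR-HSCs and 616.7 in NLR-HSCs (exact permutation p = 0.0571). The value of NLR-HSC repeat 2 rested on 2 such cells and that of repeat 4 on 1, at 7.05 CPM. The part of depth and of genes per cell in the difference was not tested.

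**Figure D3:**
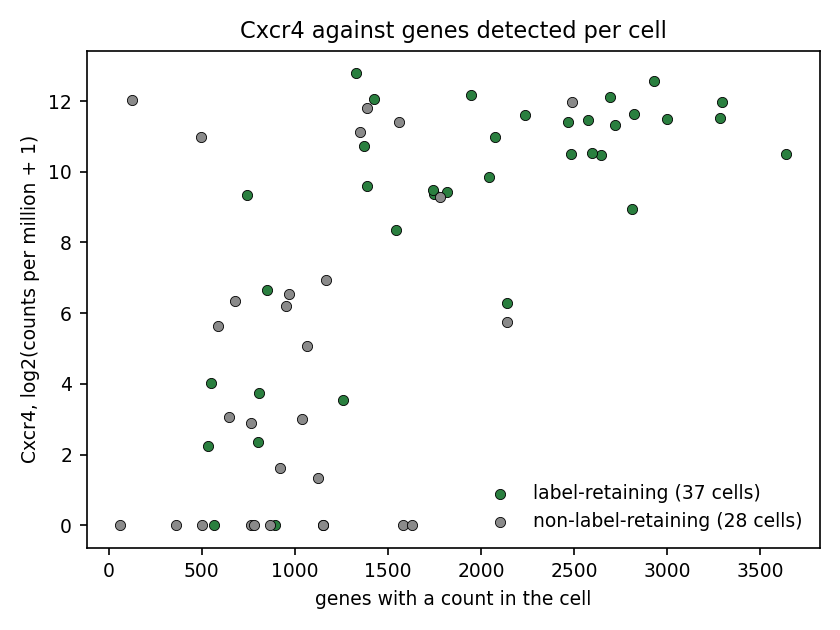
Cxcr4 as log2(CPM + 1) against the number of genes with a count, for 37 label-retaining cells in green and 28 non-label-retaining cells in grey. Most cells with many genes had high Cxcr4, and 4 non-label-retaining cells of repeat 3 with at least 1000 genes stood at or near 0.

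The ligand Cxcl12 and its other receptors were at or near 0 in these cells. Of 8 genes listed as ligand, other receptors and binding partners, 6 were in the table and 4 had counts. Cxcl12, the ligand, had counts in no cell of either group, nor had Ackr1, a scavenging receptor of other chemokines. Ackr3, the scavenging receptor of Cxcl12, had counts in 1 LR-HSC and 0 NLR-HSCs. Mif, a second ligand of Cxcr4, was found in 16 LR-HSCs and 4 NLR-HSCs. Cd74, the receptor of Mif and also an antigen presentation gene, was found in 8 LR-HSCs and 6 NLR-HSCs. Its mean levels were 3550 CPM in LR-HSC repeat 2 and 3180 in NLR-HSC repeat 2 and at most 3.99 elsewhere. Most of either high mean came from 1 cell, at 29967 CPM among LR-HSCs and 12592 among NLR-HSCs. The cells of NLR-HSC repeat 2 included 1 with a total of 238.3 counts, in which 1 count makes 4197 CPM. The NLR-HSC value may therefore rest on few counts. Hmgb1, a chromatin protein that binds Cxcl12 outside cells, was found in 34 LR-HSCs and 20 NLR-HSCs. None of the 3 tested members passed the edgeR test, in which 0% of all genes did.

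Genes that switch the receptor off were also detected, 11 of 12 in the table. Among the RGS genes, whose proteins end G protein signals, Rgs1 was found in 32 LR-HSCs and 21 NLR-HSCs, Rgs2 in 31 and 13, Rgs18 in 28 and 15 and Rgs10 in 19 and 3. Vps4b, which sorts receptors for degradation, was found in 16 LR-HSCs and 10 NLR-HSCs. Rgs1 averaged 1080 and 606.2 CPM in LR-HSC repeats 3 and 4 and 502.7 and 823.4 in NLR-HSC repeats 3 and 4, where Cxcr4 was low. Of the 7 tested members 0 passed, 4 had a log2 fold change above 0, and the median was 0.61, against 65.5% above 0 and a median of 1.15 over all genes.

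Downstream of the receptor, 23 of 56 listed genes were in the table and all 23 had counts. Rhoa, a GTPase of cell movement, was found in 31 LR-HSCs and 21 NLR-HSCs, Gng11, a G protein gamma subunit, in 27 and 13, Rap1b, a GTPase of integrin adhesion, in 21 and 19, and Pik3r1, a subunit of phosphoinositide 3-kinase, in 24 and 11. Inpp5d, the phosphatase SHIP that limits phosphoinositide 3-kinase signals, was found in 30 LR-HSCs and 12 NLR-HSCs, and in 0 of 6 and 1 of 10 NLR-HSCs of repeats 3 and 4. Of the 21 tested members 0 passed, 16 had a log2 fold change above 0, against 65.5% of all genes, and the median was 1.36, against 1.15.

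The transcription factor genes named here, known to act on Cxcr4, were found less often than Cxcr4 itself. Hif1a, the low-oxygen factor, was found in 16 LR-HSCs and 10 NLR-HSCs, Nrf1, nuclear respiratory factor 1, in 15 and 9, Rela, a subunit of NF-kB, in 19 and 3, and Meis1, a stem cell homeobox gene, in 24 and 12. Cited2, which competes with hypoxia-inducible factor for its coactivator, was found in 26 LR-HSCs and 5 NLR-HSCs, and in 0 of 6 and 0 of 10 NLR-HSCs of repeats 3 and 4. Of the 4 tested members 0 passed, and all 4 had a log2 fold change above 0, with a median of 2.70, against 65.5% and 1.15 over all genes.

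Hypoxia targets were present in both groups after the low-oxygen culture. The glycolysis genes Aldoa and Ldha were found in 32 and 27 LR-HSCs and in 21 and 12 NLR-HSCs, the hexokinase gene Hk1 in 18 and 5, and the collagen hydroxylase genes P4ha1 and P4ha2 in 27 and 23 LR-HSCs and in 13 and 10 NLR-HSCs. The Spearman correlation with Cxcr4 over 61 cells was 0.84 for Aldoa, 0.56 for Ldha, 0.02 for P4ha1 and -0.16 for P4ha2, so the members did not follow Cxcr4 together. Of the 10 tested members 0 passed and 7 had a log2 fold change above 0, with a median of 1.44, against 65.5% and 1.15 over all genes.

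Other receptors for chemotactic signals were mostly at low levels. Of 46 listed, 23 were in the table and 13 had a count. Cxcr2, a chemokine receptor of neutrophils, was found in 37 of 37 LR-HSCs and 22 of 28 NLR-HSCs. Its mean levels were 341.0, 94.5, 774.6 and 605.5 CPM in LR-HSC repeats 1 to 4 and 112.9, 633.8, 768.3 and 588.8 in NLR-HSC repeats 1 to 4. In repeats 3 and 4, in which Cxcr4 lay far apart, the groups were close in Cxcr2, and its correlation with Cxcr4 over cells was -0.25. F2r, a thrombin receptor, was found in 23 LR-HSCs and 9 NLR-HSCs, Xcr1, a chemokine receptor, in 23 and 10, Cx3cr1, the fractalkine receptor, in 20 and 5, and S1pr4, a sphingosine 1-phosphate receptor, in 14 and 4. Neither of the 2 tested members passed.

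Niche adhesion and stem cell genes showed both patterns. Hlf was found in 9, 8, 7 and 7 LR-HSCs of repeats 1 to 4 and in 8, 3, 0 and 1 NLR-HSCs. Like Cxcr4, it was found in a smaller share of NLR-HSCs in repeats 3 and 4 than in repeats 1 and 2. Cxcr4 was still found in 2 of 6 and 5 of 10 NLR-HSCs there. Gata2, a stem cell transcription factor gene, was found in 24 LR-HSCs and 10 NLR-HSCs, and Ifitm3, an antiviral membrane protein gene, in 17 and 6. Cd63, a tetraspanin, was found in 36 LR-HSCs and 22 NLR-HSCs. In NLR-HSC repeat 3 all 6 cells had it, with a mean of 3485 CPM. Cd9 and Cd81, also tetraspanins, were found in 29 and 24 LR-HSCs and in 20 and 14 NLR-HSCs, and Ifngr1, an interferon gamma receptor subunit, in 26 and 13. Itgb3, an integrin of the fibrinogen receptor, was found in 30 LR-HSCs and 9 NLR-HSCs and was the 1 member of the 9 tested niche genes that limma with the repeat as a block called, as it did 0.933% of all genes (adjusted p = 0.0105; edgeR without the block, adjusted p = 0.449). On the sums edgeR with the repeat as a block called 0 genes, with a smallest adjusted p of 0.523. Of the 9 niche and 6 stem cell identity members tested with edgeR 0 passed, with medians of -0.31 and 2.07 and 4 members of each list above 0, against 1.15 and 65.5% over all genes.

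The genes whose levels were most like those of Cxcr4 across the 61 cells were Gabarapl1, an autophagy gene (Spearman correlation 0.86), Aldoa (0.84), the small nucleolar RNA host Gas5 (0.84), Trim47, a ubiquitin ligase gene (0.83), and Jmjd1c, a chromatin gene (0.81). These were the highest of 976 genes with counts in at least 0.5 of those cells, whose median correlation with Cxcr4 was 0.35. After the mean of each repeat and group was taken out, the highest were Aldoa (0.79), Gabarapl1 (0.78), Jmjd1c (0.74), Gm21092 (0.72) and Gas5 (0.72), with a median of 0.34. The points share library and genes per cell, with which Gabarapl1 and Aldoa correlated at 0.66 and 0.81. Gabarapl1 averaged 472.2, 335.5, 1074 and 221.8 CPM in LR-HSC repeats 1 to 4, and 463.9, 2.22, 0 and 0 in NLR-HSC repeats 1 to 4.

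**Figure D4:**
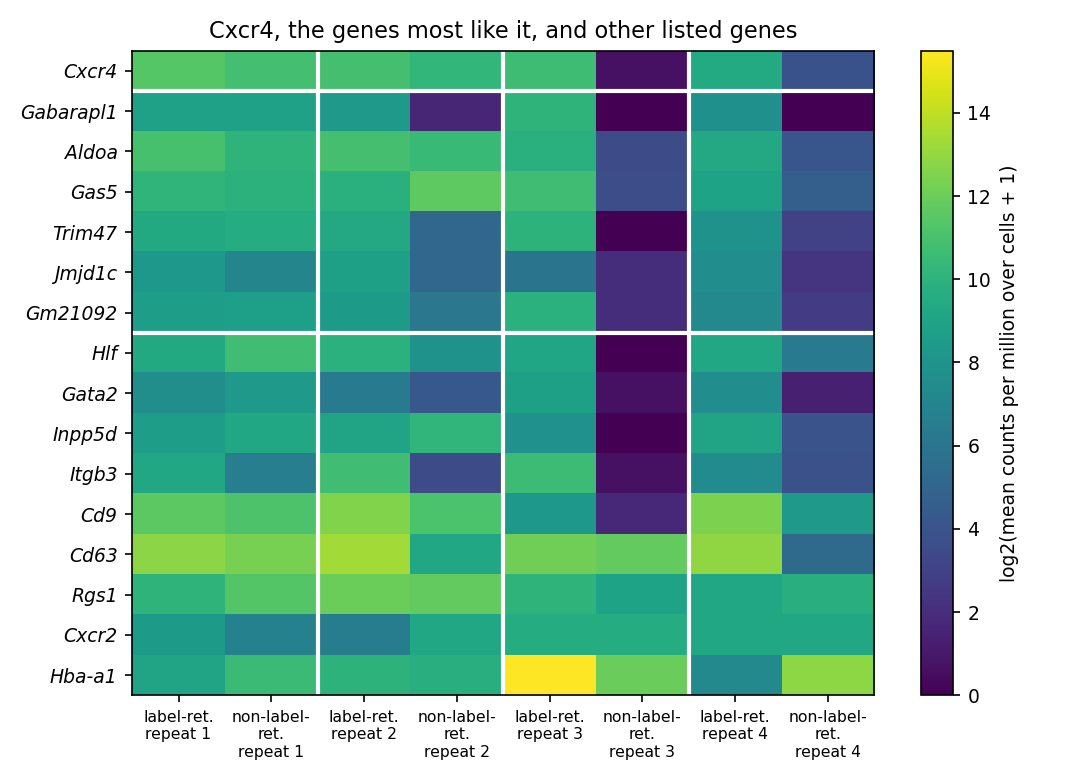
Mean CPM over cells, as log2(mean + 1), for Cxcr4, the 6 genes most like it by either correlation, and 9 other listed genes, in each repeat of each group. Cxcr4 and the genes most like it were dark, which marks low levels, in non-label-retaining repeats 3 and 4, while Rgs1, Cxcr2 and Hba-a1 were not. Of the other listed genes, Gata2, Inpp5d and Itgb3 were also dark in both, and Hlf and Cd9 in repeat 3.

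Cxcr4 is also carried by B cells, T cells and neutrophils, so markers of these were examined. Counts were found for 4 of 8 B cell markers, none for Ebf1, Ighm and Igkc, and the summed level of the list ran from 0.701 to 5446 CPM in LR-HSC and from 1.39 to 3184 in NLR-HSC repeats. Cd79a reached 1386 CPM in LR-HSC repeat 2, most of it from 1 cell at 11685 CPM, and at most 4.43 in an NLR-HSC repeat. Cd74 made most of the highest sum of the list in each group, and there it came mostly from 1 cell. The NLR-HSC sum, of repeat 2, may rest on few counts, as 1 cell there had a total of 238.3. Of the T and NK cell markers 3 of 10 had counts, from 0 to 80.5 CPM in LR-HSC and from 0 to 1921 CPM in NLR-HSC repeats, with Cd4, Trbc1 and Trbc2 in no cell. The NLR-HSC high was Cd247 in repeat 4, nearly all of it from 1 cell at 19047 CPM. Of the neutrophil markers 4 of 7 had counts, from 156.3 to 774.6 CPM in LR-HSC and from 119.0 to 768.3 CPM in NLR-HSC repeats, most of it Cxcr2, with Elane, Mpo and Ltf in no cell. Of the monocyte and macrophage markers 3 of 6 had counts, from 0 to 23.1 CPM in LR-HSC repeats and 0 in NLR-HSC repeats, with Csf1r and Adgre1 in no cell. Of the dendritic cell markers 4 of 7 had counts, from 105.6 to 572.1 CPM in LR-HSC and from 8.62 to 95.2 CPM in NLR-HSC repeats, with Flt3 and Itgax in no cell. Most of the sum in the LR-HSC repeats, and of the NLR-HSC high, was Tcf4, found in 23 LR-HSCs and 12 NLR-HSCs.

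Markers of further lineages were present to different degrees. All 5 erythroid markers in the table had counts, from 1427 to 93711 CPM in LR-HSC and from 3864 to 31811 CPM in NLR-HSC repeats, most of it haemoglobin. The LR-HSC high was in repeat 3 and rested on single-cell values. Hba-a1 averaged 46081 CPM there with a highest cell of 452314, and Hbb-bs 34122 with a highest cell of 340549. Of the megakaryocyte and platelet markers 5 of 10 had counts, from 262.3 to 2093 CPM in LR-HSC and from 4.32 to 478.6 CPM in NLR-HSC repeats, with Gp1ba, Gp6 and Gp9 in no cell. Most of the LR-HSC high was Itgb3, in repeat 2. Most of the NLR-HSC high was Vwf, in repeat 4, where 1 cell stood at 3889 CPM. Vwf was found in 16 LR-HSCs and 8 NLR-HSCs, and Itga2b in 11 and 2. All 4 endothelial markers had counts, from 22.5 to 220.0 CPM in LR-HSC and from 0 to 49.3 CPM in NLR-HSC repeats, and 4 of 7 stromal markers did, from 11.4 to 141.5 CPM in LR-HSC and from 13.9 to 65.7 CPM in NLR-HSC repeats, with Col1a1 and Col3a1 in no cell. The 1 mast cell and basophil marker in the table, Fcer1a, had no count. The part of other cells or their free RNA in the level of Cxcr4 was not tested.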

How the data were processed

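Per the labels' protocols, SMART-Seq v4 amplified the polyadenylated RNA of each sorted cell over its full length, with no record of strand or of single molecules, before manual Nextera XT library preparation. The authors deposited 1 table of estimated counts per gene and cell. The submitters' processing notes name mm10 and DESeq; aligner, counter and annotation: not given in the sources used here. Although the table is called normalized, totals per cell ran from 86.1 to 20516069, and among values from 0.5 to 20 a median of 74.7% per cell (59.5 to 100%) were whole within 0.0001, so the values were treated as unscaled expected counts, rounded after summing. Identifiers were matched to RefSeq GRCm38.p6 (16216 of 18036; the others held 0.13% of counts).

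The repeat was the unit, 4 against 4. Values per cell were averaged over the cells of a repeat and compared with an exact two-sided permutation test. Thinned detection is the hypergeometric expectation for 10000 counts. Sums per repeat and group were tested with edgeR 4.0.16 (TMM, robust quasi-likelihood, Benjamini-Hochberg, threshold 0.05; the SE is the size of the log2 fold change over the root of F), with DESeq2 1.42.0 and limma 3.58.1 as alternatives (R 4.3.3, Python 3.11.15, scipy 1.17.1). Genes with a mean of at least 10 over the 8 means per cell and a count in at least 10 cells entered, 2786 in all. The sums of NLR-HSC repeats 3 and 4 had TMM factors of 0.29 and 0.22, all other sums 1.44 to 2.04. The tests were checked on simulated data. Same-numbered repeats of the groups, which share the replicate number in the labels, deviated together (correlations 0.56, 0.27, 0.17 and 0.15 for repeats 1 to 4), each over 0.1, so the numbers were taken to pair them, although LR-HSC repeat 4 correlated best with NLR-HSC repeat 3. Nothing says whether a repeat was 1 animal, so p-values measure the spread between these repeats.

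Named genes were Cxcr4, the 5 most correlated with it in each of 2 ways among genes found in at least 0.5 of the cells with 10000 counts or more, all of the ligand and receptor list, and the 5 most often detected members of each other list with counts in at least 10 cells; 1 gene that this rule selects is not reported here. Cxcr4, the lists and the tests were chosen with earlier results of these data known.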

Additional observations from a re-analysis of the deposited data

Results flagged for a closer look

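Among NLR-HSCs with a count, the median level of Cxcr4 in repeat 1 was 2142 CPM, and in the other 3 repeats it was 1.81 to 357.2. The gap was 0.834 of the range of the 4 repeats, which set repeat 1 apart from the others. In NLR-HSC repeat 2, cell 9 stood at 4197 CPM and the other 3 cells at 53.2 to 623.1. That cell had 1 count of Cxcr4 in a total of 238.3. For normally distributed values chance sets about 1 in 20 such groups apart. CPM values are skewed, so that rate need not hold for the 18 groups of repeats or cells examined.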

How the results depend on the processing

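The 6 results on Cxcr4 were each recomputed under 18 to 22 other settings, 114 in all. In all 114 the LR-HSC value was the higher one and the threshold was not passed. They are not independent checks, and some could not move a value. Sign flips leave a difference as it is, and detection at 1 count or more gave the same 21.1 points. The level in cells with 10 counts or more had 2 NLR-HSC repeats, with which an exact test cannot go below 0.0667. With 1 repeat left out, of both groups or of 1, the difference in detection ran from 8.61 to 30.8 points, thinned detection from 22.9 to 49.4 points, CPM from 670.7 to 1358, its log2 form from 2.05 to 5.04, the level in detecting cells from 101.8 to 1134 and the log2 fold change of the sums from 1.24 to 4.91; an exact test cannot go below 0.1 with 3 repeats in both groups and can reach 0.0286 with 3 against 4. With the repeats paired, exact sign flips gave p = 0.125, the smallest possible, for all but raw detection (0.5), and the replicate block gave the sums a log2 fold change of 4.18 (edgeR, adjusted p = 0.595), which changed no call. CPM differed by 481.8 with medians over cells and by 2063 with cells weighted by depth (exact permutation p = 0.0571). The sums gave 0.88 with each cell scaled to the same total and 2.41 without TMM. Pseudocounts of 10 and 100 gave log2 differences of 2.73 and 1.70. The limits on genes per cell, on CPM and on cells in the sums, the scaling of each cell before summing, and limma with the replicate block were added after the data were seen. Depth limits the low end: a cell with the median NLR-HSC total needs 25.4 CPM to show 3 counts.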
